A study of Mus musculus with 10 samples.

Results

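The wells described here are 57 single mouse trophoblast stem cells of 1 plate library, labelled newly derived pTSCs, that held many transcripts of the VEGF receptor gene Flt1 and few of the ERK feedback genes Dusp6 and Spry4. A well was kept if it held at least 2000 UMIs (molecule counts) outside mitochondrial genes, which left 299 of 384 wells in the pTSC library and 1192 wells in the 4 single-cell libraries. Of these 299 pTSC wells, 187 had a sum of Dusp6 and Spry4 under 5 UMIs per 10000 and are called low-ERK wells. Within them, 57 had at least 4 Flt1 UMIs per 10000 (Flt1-rich), 64 had no Flt1 UMI (Flt1-negative) and 66 lay between. The remaining 112 kept wells, at or above 5 per 10000, are called high-ERK wells. Flt1, Dusp6 and Spry4 chose the wells, so their own levels are not a result.

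All lines measured in single cells were of C57BL/6J background and carried a GFP expression cassette integrated at random, with pTSCs grown in LT21 medium and the TSC line F4 in Tx medium. The 4 single-cell libraries, 1 per group, held newly derived pTSCs, F4 TSCs, F4 TSCs cultured for 6 days without growth factors (Fgf4, Tgfb and heparin), and pTSCs of line pTS1 recovered from blastoids, which are stem-cell-built models of the blastocyst. Another 6 libraries were made from bulk TSCs of C57BL/6J background with an eGFP knock-in at the Cdx2 coding sequence, sorted as CDX2-high (n = 3) and CDX2-low (n = 3). All were made with CEL-Seq2, a 3′ tag method. Each single-cell group is 1 plate, and the labels name no clone, passage or number of blastoids, so a difference between libraries cannot be told apart from a difference between plates.

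The trophectoderm is the outer epithelium of the blastocyst. Its polar part lies over the inner cell mass and keeps dividing under FGF signals from it, while its mural part lines the cavity, stops dividing and turns into the first invasive trophoblast. FGF acts through the kinase ERK, which switches on its own inhibitors of the Dusp and Spry families, so that their transcripts are read as a gauge of ERK activity. FLT1 is a receptor for VEGF ligands that placental trophoblast makes in quantity, and KRT8 and KRT18 pair into the keratin filaments of simple epithelia, of which the trophectoderm is the earliest.

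The Flt1-rich wells were deeper than the Flt1-negative ones, with 2063 to 24362 UMIs (median 7334) against 2037 to 17201 (median 4615). Thinned to 2000 UMIs, they held a like number of genes (median 1185 against 1171.5), and mitochondrial transcripts made up a median of 15.1% against 14.7%. Flt1 ranged from 4.05 to 46.6 UMIs per 10000 (median 6.71) in the Flt1-rich wells, with 1 well resting on 1 Flt1 UMI and 7 wells on 2. In the pTSC plate, 20 wells with under 200 UMIs held 0 Flt1 UMIs of 2162, which allows a background of up to 13.9 per 10000, so a background below the line of 4 was not measurable. Near that line, 17 low-ERK wells lay between 4 and 5 per 10000 and 22 between 3 and 4. Krt8 stood at 1049 CPM (counts scaled to a total of 1000000) in the former and 496 in the latter, beside 682 in the Flt1-negative wells. Among the 17 were wells with 59.1 and 23.3 Krt8 UMIs per 10000, both of the keratin-high wells described below. The level of 1049 thus leans on few wells and shows no step at the line. A class cut from a level in this way is a range and is given no cell type name. All 4 libraries use the same 384 well numbers, so a well number is no link between libraries.

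The label of low ERK feedback was checked with related genes that the choice did not use, comparing the 57 Flt1-rich wells with the 112 high-ERK wells. The ERK antagonist Spry2 stood at 43.4 CPM against 182 (ratio 0.24, 95% counting interval 0.14 to 0.38), and the MAP kinase phosphatases Dusp4 and Dusp5 at ratios of 0.47 and 0.49. The inhibitors Spred1 and Spred2 stood at 0.60 and 0.58, and the AP-1 factor Fosl1 at 0.57. Spred2 was uneven within the 57 wells. It stood at 31.4 CPM in the 11 keratin-high wells described below and at 282 in the other 46, against 396 in the high-ERK wells. Not every gene on the list followed, since Phlda1 was at 1.06, Ier3 at 0.91 and the cyclin Ccnd1 at 1.57 (0.91 to 2.67). Wells past the Flt1 line made up 42 of 112 high-ERK wells (37.5%, exact binomial interval 28.5 to 47.1). Among low-ERK wells they made up 57 of 187 (30.5%, 24.0 to 37.6). These shares rest only on the genes that chose the wells, and both rose when classes were set after thinning to 2000 UMIs. The intervals cover counting error over wells of the same plate, so whether the shares differ was not tested.

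Against the 64 Flt1-negative wells, the 57 Flt1-rich wells held more transcripts of the simple keratins Krt8 and Krt18, of the prostaglandin transporter Slco2a1, of the transcription factor gene Sox9 and of the homeobox gene Rhox6. Counts were summed over the wells of each class (461213 and 347262 UMIs) and given as CPM, for 1719 genes with at least 100 counts over both. Of these, 76 were at least 1.5-fold higher in the Flt1-rich wells (4.42%) and 32 at least 1.5-fold lower (1.86%), and the median log2 difference over all of them was -0.02. This is a rule of size, since 1 library allows no test, and the intervals below cover counting error only. By the naming rule, 16 higher and 10 lower genes are followed in all comparisons.

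The keratin pair spread widely between wells. Krt8 (chromosome 15) ranged from 0 to 117 UMIs per 10000 in the Flt1-rich wells (median 9.15) and from 0 to 29.1 in the Flt1-negative wells (median 4.86). The wells overlapped for the most part, and 9 Flt1-rich wells lay above every Flt1-negative one. Summed, Krt8 stood at 1988 CPM against 682 (ratio 2.91, 2.52 to 3.37). Krt18, its filament partner on the same chromosome, ranged from 0 to 235 per 10000 (median 24.7) against 0 to 69.9 (median 21.6). Its medians were close, 12 Flt1-rich wells lay above the Flt1-negative range, and its summed level was 4670 CPM against 2217 (ratio 2.11, 1.94 to 2.29). Genes of the keratin family have near copies in the genome, so reads shared with a copy could shift both levels. Krt7 had under 100 counts and was not measured.

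Slco2a1 (chromosome 9), whose product carries prostaglandins across membranes, had the highest ratio of the named genes. It ranged from 0 to 40.9 UMIs per 10000 (median 3.67, no UMI in 11 of 57 wells) against 0 to 9.47 (median 0.94, no UMI in 29 of 64). The Flt1-rich wells were shifted upward as a whole, and 10 of them exceeded every Flt1-negative well. The summed level was 696 CPM against 187 (ratio 3.72, 2.84 to 4.93), and with each well thinned to 2000 UMIs the transcript was found in 52.6% of Flt1-rich wells against 29.7%.

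The promoters of these 3 genes are shown because the keratin pair was higher together and Slco2a1 had the highest ratio. Each stretch is the 250 bases upstream of the gene's start in RefSeq (build GRCm38.p6), written 5′ to 3′ on the gene's strand, and capitals mark a match to a searched motif. The Krt8 stretch is chr15:102004343-102004592 on the minus strand, the Krt18 stretch chr15:102027966-102028215 on the plus strand and the Slco2a1 stretch chr9:103008237-103008486 on the plus strand.

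Krt8: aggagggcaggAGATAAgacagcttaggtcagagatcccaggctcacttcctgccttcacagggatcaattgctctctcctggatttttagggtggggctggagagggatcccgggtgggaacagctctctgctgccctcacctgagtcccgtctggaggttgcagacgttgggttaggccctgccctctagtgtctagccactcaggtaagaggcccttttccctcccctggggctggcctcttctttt

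Krt18: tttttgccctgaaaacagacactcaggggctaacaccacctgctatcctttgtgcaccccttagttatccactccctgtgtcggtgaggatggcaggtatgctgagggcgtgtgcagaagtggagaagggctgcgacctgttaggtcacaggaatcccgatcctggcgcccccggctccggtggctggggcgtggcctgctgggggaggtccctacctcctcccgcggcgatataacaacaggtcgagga

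Slco2a1: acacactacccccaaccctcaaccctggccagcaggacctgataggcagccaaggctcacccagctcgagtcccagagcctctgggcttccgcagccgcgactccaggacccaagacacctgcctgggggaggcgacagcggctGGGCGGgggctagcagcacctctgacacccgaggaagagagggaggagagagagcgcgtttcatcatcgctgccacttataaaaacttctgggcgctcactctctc

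Krt8 and Krt18 start 23.9 kb apart on opposite strands and point away from each other. The motifs searched on both strands were an AP-1 site (TGANTCA, in 6.75% of 32851 RefSeq promoter stretches of this length), a TEAD site (GGAATG, 12.6%), a GC box (GGGCGG, 32.7%), a GATA site (AGATAA, 9.99%), an ETS site (CCGGAAG, 6.91%), a SMAD site (GTCTAGAC, 0.167%) and a SOX site (AACAATG, 3.29%). The Krt8 stretch held the GATA letters from -239 (the first base, with -1 next to the start), the Slco2a1 stretch the GC box from -106, and the Krt18 stretch none of the 7. Promoters of 9 of the 16 named higher genes were in the table, and 4 of the 9 held the GC box (Slco2a1, Map1b, Col4a2 and Crip2). These matches are letters in a window and say nothing of binding.

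Transcription factors and signalling genes differed among themselves. Sox9 (chromosome 11), a SOX factor of many epithelial progenitors, had no UMI in 22 of 57 Flt1-rich and 39 of 64 Flt1-negative wells, and its summed level was 338 CPM against 135 (ratio 2.5, 1.79 to 3.54). Rhox6, a homeobox gene of the X-linked reproductive cluster, ranged from 0 to 47.1 per 10000 (median 3.11) against 0 to 17.5 (median 2.96). Its medians were alike and its upper wells were not, and the ratio of summed levels was 2.10 (1.72 to 2.57). That ratio leaned on few wells. Without the 11 keratin-high wells described below it was 1.36 (1.09 to 1.71), with 31.4% of the Rhox6 counts left from 1 well. With wells thinned to 2000 UMIs, Rhox6 did not reach 1.5-fold. Its neighbour Rhox9 stood at 466 CPM against 305 (1.53, 1.2 to 1.95), and reads shared between these near copies cannot be told apart. Pmepa1, a membrane protein induced by TGF-beta, was at 1678 CPM against 985 (1.70), and Sfn, the epithelial adaptor 14-3-3 sigma, at 839 against 492 (1.70).

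The remaining named higher genes code for cytoskeletal, matrix, surface and other proteins. Lgals1, the secreted lectin galectin-1, stood at 980 CPM against 495 (ratio 1.98, 1.66 to 2.37), with 7 Flt1-rich wells above the whole Flt1-negative range. The 2 collagen IV chains of basement membranes, Col4a1 and Col4a2, stood at 1.79 and 1.74, the microtubule-associated Map1b at 2.14 and the LIM-domain gene Crip2 at 1.74. The endocytic ATPase Ehd1 was at 503 CPM against 248 (2.03) and the protease calpain-2 (Capn2) at 2.03. Basp1, a membrane-bound cortical protein given as a marker of these wells, was at 2255 CPM against 1705, a ratio of 1.32 (1.19 to 1.47) that stays under the 1.5-fold line.

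Fewer genes were lower. Ets1, an ETS transcription factor, had the lowest ratio (0.36, 0.25 to 0.53), with 93.2 CPM against 256 and no UMI in 47 of 57 wells against 37 of 64. Id2, which blocks bHLH factors and is high in trophoblast progenitors, ranged from 0 to 63.1 per 10000 (median 18.9) against 0 to 121 (median 22.3), at a ratio of 0.63 (0.58 to 0.70). The linker histone H1f0 stood at 0.49, the uncharacterised 1500009L16Rik at 0.46, the ubiquitin ligase Trim6 at 0.53, the kinase Stk24 at 0.50 and the coat and pore protein Sec13 at 0.59. Car2 (carbonic anhydrase 2) at 0.68, Rrm2 (a ribonucleotide reductase subunit needed for DNA synthesis) at 0.70 and Lars2 (mitochondrial leucyl-tRNA synthetase) at 0.74 were named for their narrow intervals but did not reach 1.5-fold. The plot of named ratios shows 24 of these genes and Basp1.

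**Figure D1:**
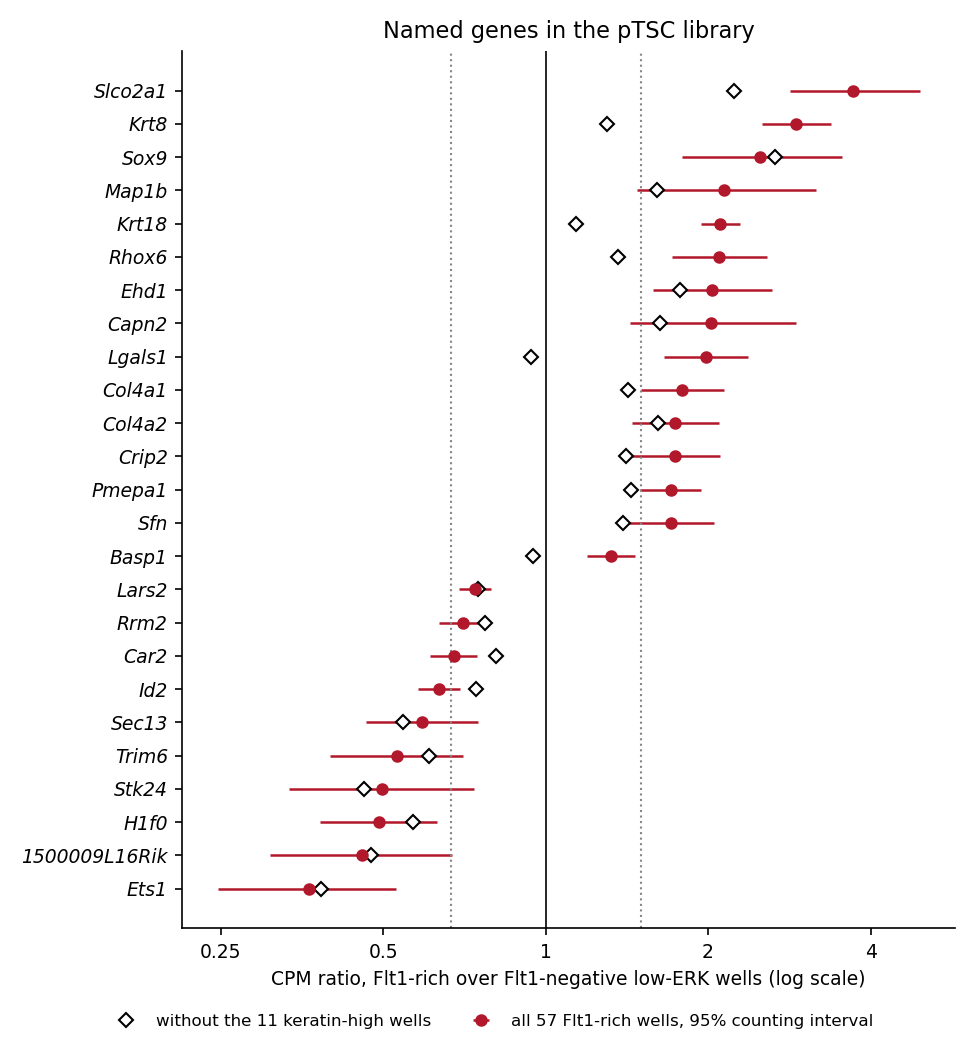
Ratio of summed CPM, Flt1-rich over Flt1-negative low-ERK wells of the pTSC library, on a log scale, for 24 named genes and Basp1. Red points with bars are all 57 wells with 95% counting intervals, and open diamonds are the ratios without the 11 keratin-high wells. Dotted lines mark 1.5-fold. Without those wells, which were chosen by their keratin sum, Krt8 stood at 1.30, Lgals1 at 0.94 and Sox9 at 2.67.

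Grouped by the lists chosen for this tissue, 4 of 6 measured mural trophectoderm genes were at least 1.5-fold higher (Krt8, Krt18, Lgals1 and the growth factor gene Pdgfa at 1.60) and none lower, with a list median of 0.83 on the log2 scale beside -0.02 for all genes. Since Krt8, Krt18 and Basp1 were given as markers of these wells, this list is no independent evidence of its direction. Of all 1719 measured genes, 4.42% were at least 1.5-fold higher and 1.86% lower. Of 11 polar trophectoderm genes, 1 was higher (the oxidase gene Duox2, 1.55) and none lower (median -0.15). Of 8 measured TSC regulators, Id2 was lower and none higher, and Eomes stood at 525 CPM against 481 and Sox2 at 531 against 608. Among epithelial junction genes, the desmosomal Pkp2 was higher (1.67), and among actin cortex genes 2 of 14, Anxa3 (1.80) and Tagln2 (1.54). No gene of S phase (7 measured, median -0.36) or of G2 and M phase (11 measured, median -0.05) passed 1.5-fold in either direction.

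Genes of signalling pathways were mostly too sparse to be measured. No VEGF ligand or other VEGF receptor had 100 counts, and Vegfa, Vegfb and Pgf were listed at 0 in both classes. So were the glycolytic Pgk1 and the actin gene Actg1, which all cells use, so a listed 0 here says nothing of expression. One of 2 measured YAP targets was higher (Cyr61, 1.51), 1 of 2 STAT3 targets (the kinase Pim1, 1.56) and 1 of 11 cholesterol synthesis genes (Mvd, 1.51). Of all measured genes 4.42% were higher, and single genes just past the line say nothing of a pathway. None of the 4 measured FGF and ERK targets other than the selecting genes passed 1.5-fold (median -0.02).

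Markers of other cell types that such a plate could hold were summed per well, and their part in the results was not tested. Fibroblast markers (7 genes in the table) summed to 0 to 13.3 UMIs per 10000 in the Flt1-rich wells and 0 to 11.2 in the Flt1-negative ones, with a median of 0 in both. Endothelium and blood markers reached at most 2.73 against 4.18 per 10000, also with medians of 0. Primitive endoderm markers (10 genes in the table) were not near 0, with 0 to 57.9 per 10000 (median 14.2) against 0 to 42.6 (median 10.9). Of the 3 measured genes, Col4a1 and Col4a2 were at least 1.5-fold higher, beside 4.42% of all measured genes. The list summed to 2025 CPM against 1267, and the excess lay in Col4a1 and Col4a2 (ratios 1.79 and 1.74). The other members together were not higher. Its members Sox17 and Sox7 were listed at 0 in the Flt1-rich wells, and Gata6, Sox7 and Foxa2 in the Flt1-negative ones. Epiblast markers (9 genes in the table) ranged from 0 to 27.6 (median 4.48) against 0 to 33.7 (median 6.53), with Pou5f1 and Fgf4 listed at 0 in both. The trophoblast giant cell list had 1 measured gene (log2 difference 0.07), and Hand1 was listed at 0 in the Flt1-rich wells.

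Most of the keratin signal lay in a minority of the wells. The sum of Krt8 and Krt18 ranged from 0 to 353 UMIs per 10000 in the Flt1-rich wells (median 33.6) and from 3.64 to 99.0 in the Flt1-negative wells (median 25.8). It ranged from 5.67 to 93.6 in the 66 wells between (median 20.6) and from 4.86 to 90.6 in the 112 high-ERK wells (median 21.7). The medians lay close together, but the 11 wells with the highest keratin sum of all 299 kept pTSC wells were all Flt1-rich low-ERK wells. At 100 per 10000, a line drawn after seeing the wells, there were 11 of 57 (19.3%, exact interval 10.05 to 31.9) against 0 of 64 (exact upper limit 5.60%), 0 of 66 (upper limit 5.44%) and 0 of 112 (upper limit 3.24%). The next well, at 99.0, was Flt1-negative. At 50 per 10000 the counts were 18 of 57 (31.6%) against 6 of 64 (9.38%), 4 of 66 (6.06%) and 6 of 112 (5.36%).

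**Figure D2:**
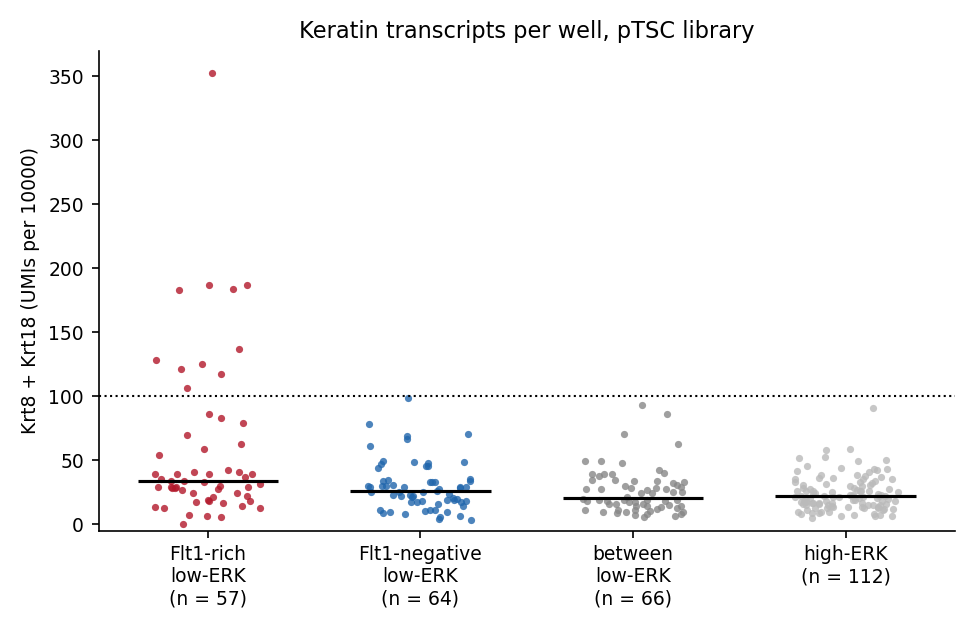
Sum of Krt8 and Krt18 in UMIs per 10000 (vertical axis) for each kept well of the pTSC library, by class. Each point is a well, horizontal bars are medians and the dotted line is 100 per 10000. The 11 wells above the line are all in the Flt1-rich low-ERK class, and the medians are 33.6, 25.8, 20.6 and 21.7 from left to right.

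These 11 keratin-high wells were not the deepest ones, with 2300 to 24362 UMIs (median 5525) and a median mitochondrial share of 13.2%. The 46 other Flt1-rich wells held a median of 7347.5 UMIs. Of the 11, 3 had under 4000 UMIs, 5 had 4000 to 10000 and 3 had more. In a clustering of all kept pTSC wells made without the selecting genes, all 11 fell in cluster 1, whose leading genes include Fosb, Adam19, Krt7 and Krt8. That cluster held 50.9% of the Flt1-rich wells, 31.3% of the Flt1-negative ones and 15.2% of the high-ERK wells, and the keratins are among the genes that define it.

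Beside keratins, which chose them, the 11 wells differed from the other 46 Flt1-rich wells in many transcripts. Of 972 genes with at least 100 counts over both, 113 were at least 1.5-fold higher (11.6%) and 191 at least 1.5-fold lower (19.7%). Against the Flt1-negative wells, 124 of 918 genes were at least 1.5-fold higher in the 11 (13.5%) and 185 lower (20.2%). Lgals1 ranged from 5.43 to 52.1 UMIs per 10000 (median 28.5) against 0 to 16.7 (median 3.29), so that most of the 11 lay above all of the 46. Basp1 ranged from 23.3 to 81.9 (median 43.1) against 0 to 38.2 (median 13.9). Slco2a1 ranged from 4.24 to 40.9 (median 11.2) against 0 to 18.2 (median 2.43), and none of the 11 lacked it. In summed levels, Lgals1 stood at 2956 CPM against 465 (ratio 6.36, 5.24 to 7.74), Basp1 at 4717 against 1613 (2.92), Slco2a1 at 1761 against 418 (4.21) and Rhox6 at 1908 against 530 (3.60). A single well gave 39.01% of the Rhox6 counts of the 11 and a single well 32.7% of those of Slco2a1.

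Of 13 measured genes of the membrane and actin cortex list, 8 were at least 1.5-fold higher in the 11 wells (beside 11.6% of all genes). Among them were Marcks (2.89) and S100a11 (2.66), and the linker gene Ezr was lower. Basp1, given as a marker of the Flt1-rich wells, is also among the 8, so the count is not wholly independent of how the wells were chosen. Zyx, which codes for the focal adhesion protein zyxin, stood at 1373 CPM against 260 (ratio 5.29). The insulin-like growth factor binding gene Igfbp4 stood at 1981 CPM against 309 (6.41), singled out after its values were seen because 1 well gave 22.2% of its counts over the 57 wells. Within the 11, the top well of each gene gave 35.4% of the counts of Igfbp4, 35.1% of Zyx and 37.7% of Marcks. The tubulin gene Tuba1a (3.34), the zinc-finger factor Klf6 (3.16) and the fatty acid binding gene Fabp3 (2.72) were also higher. Below the minimum of 100 counts, Krt7 stood at 440 CPM against 90.2 (42 and 33 counts, ratio 4.88), with 50% of the Krt7 counts of the 11 from 1 well.

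Stem cell and polar genes were low in these 11 wells. Eomes, the T-box factor of trophoblast stem cells, was found in 3 of 11 wells, from 0 to 5.18 UMIs per 10000, against 40 of 46 wells, from 0 to 18.4 (52.4 CPM against 648, ratio 0.08, 0.03 to 0.19). Sox2, its partner in these cells, stood at 52.4 against 656 CPM (0.08) and Id2 at 660 against 2220 (0.30), with 68.3% of the Id2 counts of the 11 from 1 well. The POU factor Pou3f1 was at 0.07, and the polar genes Nat8l (0.12), Utf1 (0.26) and Duox2 (0.18) were low as well. In all, 8 of 9 measured polar genes and 4 of 6 measured TSC regulators (Eomes, Sox2, Klf5 and Id2) were at least 1.5-fold lower, and none was higher. Of all 972 measured genes, 19.7% were lower and 11.6% higher. In summed counts, 5 of 5 measured S phase genes and 6 of 7 measured G2 and M phase genes were at least 1.5-fold lower. Single wells gave 24362, 15090 and 13434 of the 95395 UMIs summed over the 11. How the division genes spread between these wells was not examined. Cdkn1a, the cell cycle inhibitor p21, was the 1 gene higher among 6 measured p53 targets, and Perp, a desmosomal membrane protein, the 1 lower. Counts of 1 among 6 cannot be set apart from the shares over all genes.

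**Figure D3:**
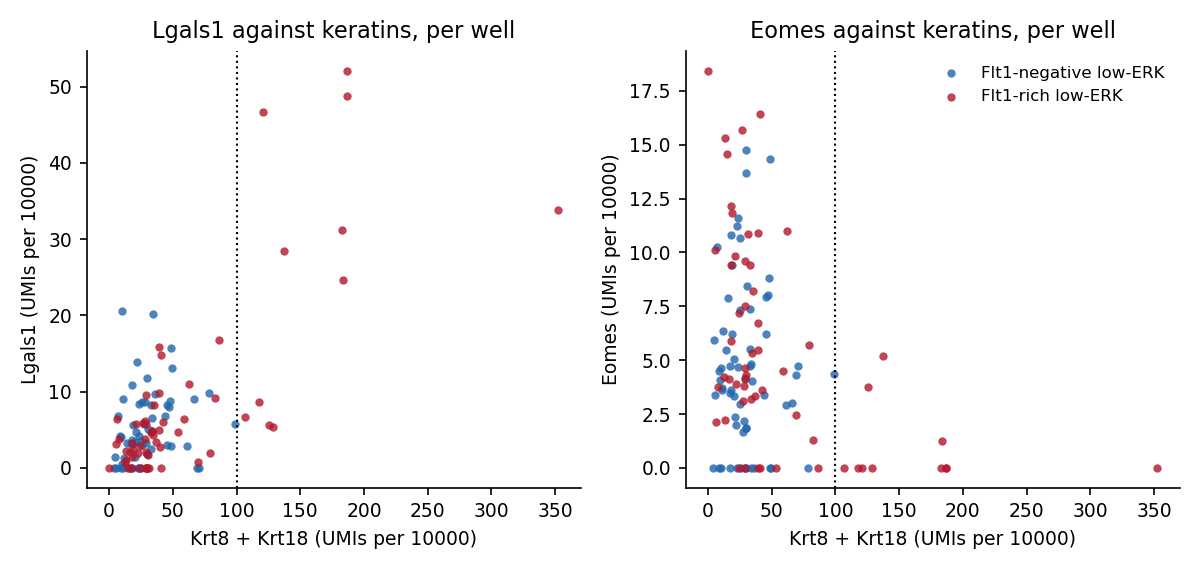
Lgals1 (left) and Eomes (right) in UMIs per 10000 against the sum of Krt8 and Krt18, for Flt1-rich (red) and Flt1-negative (blue) low-ERK wells of the pTSC library, 1 point per well. Right of the dotted line at 100, Lgals1 reached 52.1 and Eomes stayed at or under 5.18.

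The other 46 Flt1-rich wells kept part of the difference from Flt1-negative wells. Of 1552 measured genes, 44 were at least 1.5-fold higher (2.84%) and 25 lower (1.61%). Of the 76 genes higher over all 57 wells, 62 still had 100 counts, and 26 of these 62 were among the 44. Sox9 stood at 361 CPM against 135 (ratio 2.67, 1.90 to 3.8) and Slco2a1 at 418 against 187 (2.23, 1.66 to 3.03), and Ehd1, Map1b, Col4a2 and Capn2 also stayed past 1.5-fold, among 7 of the 16 named genes. The secreted factor gene Wnt6 was at 334 CPM against 167 (2.0). Krt8 was at 888 against 682 (1.30), Krt18 at 1.14, Lgals1 at 0.94 and Basp1 at 0.95. Mural genes past 1.5-fold went from 4 to 1 (Pdgfa). The wells left out were chosen by their sum of Krt8 and Krt18, so the lower keratin ratios follow from the cut. Both keratins are on the mural list, so part of the drop in its count follows from the cut too. Id2, at 0.74, was no longer 1.5-fold lower. Eomes was at 648 CPM against 481 (1.35, 1.10 to 1.65) and Sox2 at 656 against 608. Of 10 measured polar genes, Duox2 was at least 1.5-fold higher in the 46 (1.87, 1.44 to 2.44) and none was lower.

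Depth differed between the classes, and its part in the differences was not tested. The 66 wells between, with a median of 8145.5 UMIs, were deeper than both classes and held Krt8 at 618 CPM, Krt18 at 1921, Slco2a1 at 184 and Sox9 at 169, close to or below the Flt1-negative levels except for Sox9. Among the Flt1-rich wells, the 35 with Flt1 of 4 to 8 per 10000 held Krt8 at 1052 CPM and Slco2a1 at 377, and the 22 with 8 or more held 3724 and 1287. Sox9 went the other way, with 411 CPM in the 35 wells and 204 in the 22. Of the 11 keratin-high wells, 2 were among the 35 and 9 among the 22. Within wells of 4000 to 10000 UMIs, 11 of the 16 named genes stayed at least 1.5-fold higher, with Krt8 at 1.97 and Slco2a1 at 2.12, while Rhox6 (1.31), Lgals1 (1.24) and Col4a1 (1.44) did not and Id2 stood at 0.78.

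The same Flt1 split was then made inside each of the other libraries, which the choice of the 57 wells did not use. Low-ERK wells with at least 4 Flt1 UMIs per 10000 made up 14 of 287 in TSCs (4.88%, exact interval 2.69 to 8.05), 95 of 306 in differentiated TSCs (31.05%, 25.9 to 36.6) and 66 of 255 in blastoid pTSCs (25.9%, 20.6 to 31.7). These shares depend on depth, since 1 UMI in 2000 already passes the line. They may also hold background, since wells with under 200 UMIs held 4 Flt1 UMIs of 1863 in differentiated TSCs (21.5 per 10000) and 2 of 4103 in blastoid pTSCs (4.87 per 10000), both above the line of 4, and 0 of 1002 in TSCs (up to 29.9). How far these splits rest on background was not tested. In each library the Flt1-rich wells were the deeper ones, with medians of 16660.5 against 11282.5 UMIs in TSCs, 10477 against 6007 in differentiated TSCs and 8745.5 against 6612.5 in blastoid pTSCs.

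Blastoid pTSCs showed the named differences most often. Of the 76 genes higher in the pTSC library, 33 of 71 measured were at least 1.5-fold higher there (46.5%, beside 8.31% of all genes), and 13 of the 16 named genes. Krt8 stood at 2899 CPM against 1019 (ratio 2.85, 2.61 to 3.10), Krt18 at 6366 against 2740 (2.32), Slco2a1 at 1490 against 379 (3.93) and Rhox6 at 2786 against 1051 (2.65). Basp1 was at 4597 CPM (ratio 2.12), past the line it missed in the pTSC library, and Id2 was at 0.46. Wells with keratins at 100 per 10000 were 19 of 66 Flt1-rich (28.8%, 18.3 to 41.3) and 5 of 104 Flt1-negative (4.81%, 1.58 to 10.9).

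In differentiated TSCs, 26 of 71 measured genes of the 76 (36.6%, beside 7.87%) and 9 of the 16 named genes were at least 1.5-fold higher. They were the transporter, matrix and cytoskeletal genes, with Slco2a1 at 2.92, Col4a2 at 2.70, Crip2 at 2.56, Sfn at 2.57 and Capn2 at 2.39, while Krt8 was at 1.30 (1.23 to 1.38), Krt18 at 1.26 and Lgals1 at 0.75. Keratins were high in both classes of that library (Krt8 at 2860 and 2196 CPM), and wells at 100 per 10000 were 11 of 95 Flt1-rich (11.6%) and 10 of 125 Flt1-negative (8.0%). In TSCs, 11 of 73 genes (15.1%, beside 6.69%) and 2 of 14 named genes (Slco2a1 at 1.75 and Col4a1 at 1.64) were higher, from 14 Flt1-rich wells, and Rhox6 was lower (0.62, 0.51 to 0.74). Among pTSC high-ERK wells, 6 of 44 genes (13.6%, beside 7.76%) and 5 of 14 named genes were higher, with Sox9 at 7.83 (3.49 to 21.8), Slco2a1 at 2.66, Pmepa1 at 1.80, Map1b at 1.84 and Col4a1 at 1.54, while Krt8 was at 1.14 (0.89 to 1.47). Slco2a1 and Col4a1 passed 1.5-fold in all 5 splits.

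**Figure D4:**
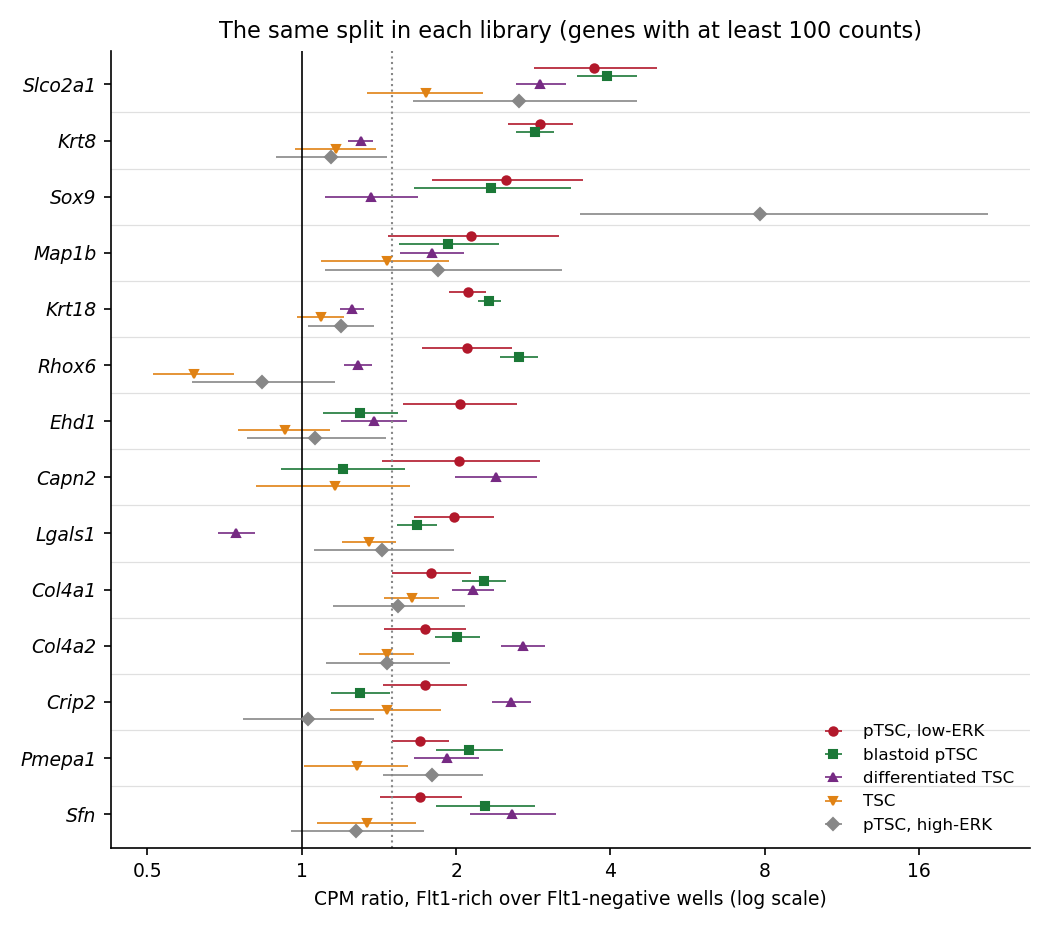
Ratio of summed CPM, Flt1-rich over Flt1-negative wells, on a log scale, for 14 of the named higher genes in 5 splits, with 95% counting intervals. Genes under 100 counts in a split are left out, and the dotted line is 1.5-fold. The pTSC low-ERK and blastoid ratios of Krt8 and Krt18 lie above 2, and those of the other splits under 1.5.

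The 32 genes at least 1.5-fold lower in the pTSC library were followed in the same way, and 5 of 32 were lower in blastoid pTSCs (15.6%, beside 7.2% of all genes), 2 of 30 in differentiated TSCs (6.67%, beside 7.2%), 4 of 31 in TSCs (12.9%, beside 8.55%) and 0 of 9 in pTSC high-ERK wells (beside 2.55%). In differentiated TSCs the share was thus no higher than that of all genes. The 10 named lower genes include Car2, Rrm2 and Lars2, which are not among the 32. At least 1.5-fold lower were 3 of 10 in blastoid pTSCs (Id2, Trim6 and Car2, beside 7.2% of all genes), 3 of 9 in differentiated TSCs (Id2, Car2 and Rrm2, beside 7.2%), 1 of 9 in TSCs (Id2, beside 8.55%) and 0 of 7 in pTSC high-ERK wells (beside 2.55%). Id2 stood at 0.38 in TSCs and 0.49 in differentiated TSCs, and at 0.97 (0.85 to 1.11) in pTSC high-ERK wells. Car2 stood at 0.32 in differentiated TSCs, at 208 CPM against 657.

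The bulk libraries gave the only replicated test, asking whether genes of the Flt1-rich wells also differ between TSCs sorted low and high for CDX2, the trophectoderm factor of the stem cell state. In the pTSC wells Cdx2 itself was under 100 counts. It stood at 41.9 CPM in the 11 keratin-high wells (4 counts), 73.8 in the other 46 (27) and 63.4 in the Flt1-negative wells (22). Whether the Flt1-rich wells are low in CDX2 was not tested. In bulk, fewer cells of a type and less RNA per cell cannot be told apart. Differences are log2, CDX2-low minus CDX2-high, fitted over 3006 genes with the quasi-likelihood test of edgeR, and p-values were adjusted by Benjamini-Hochberg. Of these, 84 were higher in CDX2-low cells (2.79%) and 93 lower (3.09%). Of the 76 genes higher in Flt1-rich wells, 47 were tested, 8 rose in CDX2-low cells (17.02%; Cd24a, Cyr61, Hspb8, Krt18, Krt8, Rhox6, Rhox9 and Slco2a1) and 2 fell (Tubb6 and Zfpm1). Of the 32 lower genes, 19 were tested and 1 passed, Id2, which rose. The labels do not say whether the libraries are separate cultures, so the p-values measure the spread between these libraries, which may be technical.

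Krt8 stood at 190, 198 and 246 CPM in the CDX2-high libraries and at 857, 655 and 763 in the CDX2-low ones. The groups did not overlap, and the difference was 1.83 (SE 0.22, adjusted p = 7.05e-06, edgeR). Slco2a1 was at 25.4, 42.8 and 55.1 CPM in CDX2-high and at 111, 187 and 185 in CDX2-low cells, again without overlap (1.91, SE 0.37, adjusted p = 0.00163, edgeR). Rhox6 rose by 1.71 on the log2 scale, from 81.1 ± 26.5 CPM to 277 ± 15.3 (SD, n = 3; adjusted p = 0.000273, edgeR), and Krt18 by 0.89, from 457 ± 15.7 to 837 ± 210 (SD, n = 3; adjusted p = 0.0105, edgeR). The Krt18 difference kept its size but not its call without CDX2-high replicate 37 (adjusted p = 0.0630, edgeR), CDX2-high replicate 39 (0.0773) or CDX2-low replicate 41 (0.0592).

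Other named genes did not pass. Basp1 was at 324 ± 66.4 CPM against 470 ± 124 (SD, n = 3; 0.53, adjusted p = 0.212, edgeR) and Col4a1 at 0.67 (adjusted p = 0.0929, edgeR). Lgals1 was at 0.19 (0.742) and overlapped between the groups. Of the named lower genes, 8 were tested. Rrm2 fell by 0.82 on the log2 scale (adjusted p = 0.0437, edgeR) and lost that call when any 1 library other than CDX2-low replicate 42 was left out, at adjusted p from 0.0817 to 0.145, and also by DESeq2 (0.161) and with libraries thinned to the smallest total (0.158). Id2 went the other way from the Flt1-rich wells, at 203, 198 and 243 CPM in CDX2-high and 334, 489 and 578 in CDX2-low cells (1.14, adjusted p = 0.00392, edgeR). Library totals were 157588 to 272030 counts in CDX2-high and 116659 to 138966 in CDX2-low cells, so every CDX2-low library was the shallower.

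**Figure D5:**
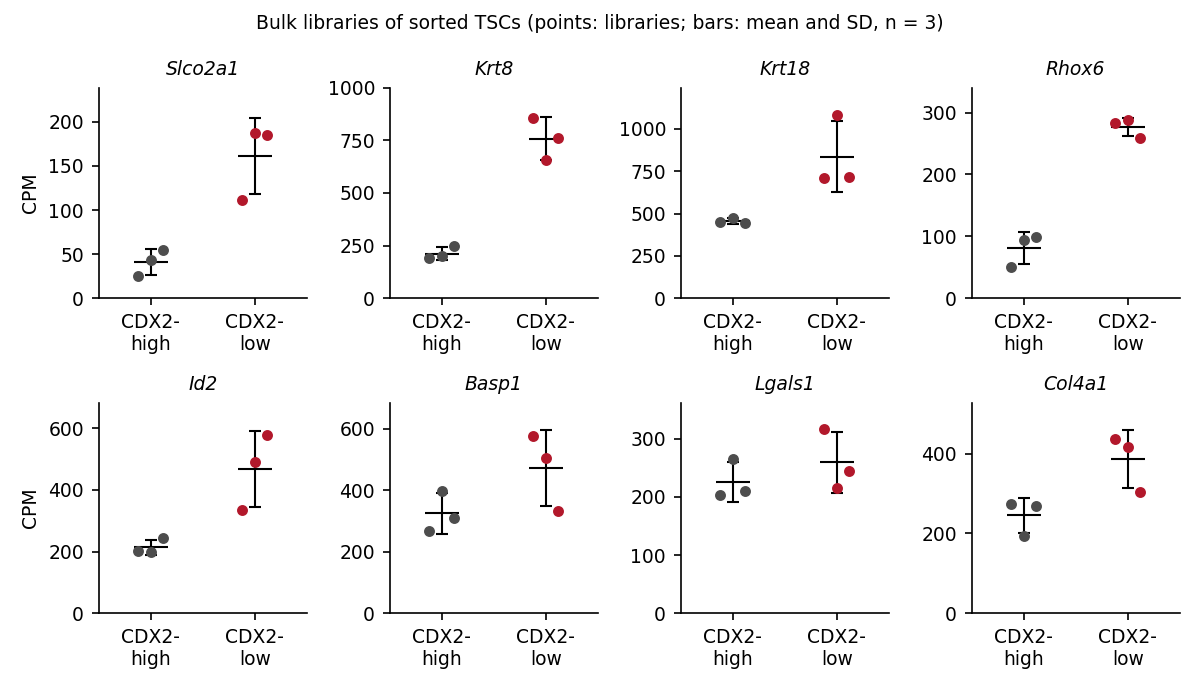
CPM in each bulk library of CDX2-high (grey) and CDX2-low (red) TSCs for 8 genes followed from the Flt1-rich wells. Points are libraries and bars the mean and SD (n = 3 per group). Slco2a1, Krt8, Krt18, Rhox6, Id2 and Col4a1 do not overlap between the groups, and Basp1 and Lgals1 do. Col4a1 was not called by edgeR. Lack of overlap was not compared with its share over all tested genes, so by itself it shows no difference.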

How the data were processed

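CEL-Seq2 libraries were made from single cells sorted into 384-well plates, per the labels' protocols. The submitters' processing notes name STAR 2.5.3a. The genome build, annotation and counting program were not given in the sources used here. The single-cell tables, as deposited, hold whole numbers per gene and well that were treated as estimated counts of transcripts, with no scaling by the authors. The bulk table, as deposited, holds raw counts per gene and library. The list of well barcodes was not used here.

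A well was kept from 2000 UMIs upward, mitochondrial genes aside. The members and gene lists were chosen with earlier results of these data known. Counts were summed per class, scaled to CPM by the non-mitochondrial total and compared as ratios with exact conditional binomial intervals at 95% for genes with at least 100 counts over both classes. A difference of 1.5-fold is a rule of size. Named genes were the 16 higher and 10 lower ones whose interval lay farthest from 1, found in at least 25% of the wells of the higher class and with at most 20% of that class's counts from 1 well; Flt1, Dusp6, Spry4 and mitochondrial genes were left out, Basp1 was added, and genes of 27 lists were described past 1.5-fold. A few of these genes are not reported here. Results on wells split by keratin level were chosen after seeing the data. In the clustering (scanpy 1.11.5, 2000 variable genes, 30 components, 15 neighbours, resolution 0.5), Flt1, Dusp6 and Spry4 were left out. Doublets were not called in the sorted wells; as an alternative, the deepest 5% of wells were dropped. The exact intervals and limits cover counting error only.

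Bulk counts (116659 to 272030 per library) entered the quasi-likelihood test of edgeR 4.0.16 (R 4.3.3) after filterByExpr and TMM scaling, with no covariates, and p-values were adjusted by Benjamini-Hochberg with a threshold of 0.05. Both scripts were tested on simulated data. Alternatives changed the depth, weighting, scaling, filters, thresholds, tool (DESeq2 1.42.0) and libraries used.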

Additional observations from a re-analysis of the deposited data

Results flagged for a closer look

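Rhox6, the X-linked homeobox gene, was higher in Flt1-rich than in Flt1-negative low-ERK wells of the pTSC library (ratio 2.10) and lower in those of the TSC library (ratio 0.618, counting interval 0.513 to 0.739). The 2 libraries thus went in opposite directions, and the difference between them was not tested, since each is 1 plate. Without the 11 keratin-high wells the pTSC ratio was 1.36, under the 1.5-fold line.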

How the results depend on the processing

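Against 76 higher and 32 lower genes in the Flt1-rich pTSC wells, the counts were 22 and 10 with wells thinned to 2000 UMIs (423 genes measured), 423 and 278 with a minimum of 30 counts, and 4983 and 3552 with no minimum, where single counts make folds. With wells of at least 4000 UMIs, 49 genes were lower. In alternatives chosen after seeing the data, the counts were 44 higher without the 11 keratin-high wells, 38 and 18 with Flt1 of 4 to under 8 per 10000, and 41 and 19 with wells of 4000 to 10000 UMIs. The cause was not tested. Without the keratin-high wells Lgals1 turned (ratio 0.938). With classes set after thinning to 2000 UMIs, the share of Flt1-rich wells was 46% in pTSCs, 13.2% in TSCs, 38.8% in differentiated TSCs and 33.6% in blastoid pTSCs, because 1 UMI in 2000 then passes.

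In bulk, DESeq2 called 27 higher and 48 lower, thinning to the smallest total 48 and 56, and leaving out 1 library 31 to 91 higher and 50 to 98 lower, with the fewest without CDX2-high replicate 39. Values near 0 changed sign, for Pmepa1 with DESeq2 (-0.0018), thinning (-0.0536) and no filter (-0.0423) and on leaving out 1 library (-0.0562 to 0.158), for Capn2 on leaving out 1 library (-0.196 to 0.0392) and for Stk24 without CDX2-low replicate 41 (range over the left-out libraries -0.577 to 0.0307). Krt8, Slco2a1 and Rhox6 stayed called in all 9 bulk alternatives. No paired analysis was possible because the bulk replicate numbers differ between the groups. Depth limits the single-cell values to genes with 100 counts, and 1 plate per group leaves no spread between plates.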
